A study of Mus musculus with 11 samples.

Results

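Described here are 66 genes whose level in sorted prefrontal cells was higher in every ethanol-withdrawn mouse than in every ethanol-naïve mouse. Levels are given as CPM, a gene's count per 1000000 counts on all genes of the library. A gene was selected on these values when its mean over the naïve mice was at least 2 CPM and its lowest withdrawn value exceeded its highest naïve value. Of 53465 genes counted, 13474 reached the floor of 2 CPM and 70 met both conditions, and leaving out Csf1, Pkn2, Creb3l2 and Slc16a11 by name gave the 66 members. Because the comparison of withdrawn with naïve mice chose the members, their separation and their fold changes in this comparison are given as a description, with no test.

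The study sequenced RNA from medial prefrontal cortex (mPFC) cells of adult male CRF1:GFP mice, a reporter line in which green fluorescent protein marks cells expressing corticotropin-releasing factor receptor 1 (CRF1, gene Crhr1). GFP-positive cells were collected by fluorescence-activated cell sorting, and each library held the cells of 1 mouse. The 5 withdrawn mice (treatment ethanol) had gone through repeated cycles of ethanol vapor with injections of ethanol and pyrazole, an inhibitor of alcohol dehydrogenase, and were sampled during abstinence. The 6 naïve mice (control) breathed air and also received pyrazole, so that pyrazole was common to both groups. Mice were grouped by title and treatment. The source names of withdrawn mice 3, 4 and 5, however, say control, and the series' design counts 5 control and 6 ethanol mice, so the number of members was also computed without these 3 mice.

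CRF1 is the main receptor through which the stress peptide corticotropin-releasing factor acts on cortical neurons. Neurons of the cortex are surrounded by an extracellular matrix of proteoglycans and glycoproteins, to which membrane proteins such as dystroglycan and glypicans attach. Matrix proteins of the fibrillin and collagen kinds are in the brain chiefly a product of fibroblasts of the meninges and vessel walls. Innate immune and interferon-stimulated genes are expressed at low levels by neurons and at higher levels by other cells of the brain.

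Gene counts were 9970161 to 17855514 per naïve and 7351567 to 22244869 per withdrawn library, and 3 counts correspond to 0.135 to 0.408 CPM. A count of 0 in naïve mouse 5 allows a level of up to 0.191 CPM. The libraries were amplified from very little RNA without molecular identifiers, so that such floors and the intervals given below cover counting error only. Crhr1 was detected in every library, at 67.1 to 118 CPM in naïve and 46.7 to 138 CPM in withdrawn mice. The summed CPM of 8 glutamatergic neuron markers was 2791 to 4326 in naïve and 2152 to 4329 in withdrawn mice. For Crhr1 and for this sum, the lowest withdrawn value came from withdrawn mouse 4 and lay below every naïve mouse. The other withdrawn mice lay above the lowest naïve mouse. Naïve mouse 5 stood apart by its 15585 detected genes, the fewest of the 11 libraries. Withdrawn mice 4 and 2 had the largest shares of tallied reads outside annotated genes, 48.1% and 39.6%, against 5.77% to 31.5% in naïve mice. The summed CPM of 10 fibroblast markers was 14.4 to 90.2 in naïve mice, above that range in 4 withdrawn mice, at 330 to 1644, and within it in withdrawn mouse 2, at 40.6.

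Promoters of 3 members are shown because these genes had some of the widest gaps between the groups. Hdlbp is added as an abundant member, with the window among its promoters that holds an E-box. Its windows at chr1:93478868-93479167 and chr1:93445652-93445951 hold none. Each sequence runs 5′ to 3′ from 250 bases before to 50 bases after an annotated start (RefSeq, GRCm38.p6). Capitals mark the GC box GGGCGG and the E-box CACGTG on either strand. The Slc12a7 promoter lies on the plus strand at chr13:73763410-73763709, inside the gene as GENCODE M21 draws it. Those of Notch2 at chr3:98013288-98013587, plus strand, Gpc3 at chrX:52613925-52614224, minus strand, and Hdlbp at chr1:93478328-93478627, minus strand, lie at or near the gene's 5′ end.
Slc12a7: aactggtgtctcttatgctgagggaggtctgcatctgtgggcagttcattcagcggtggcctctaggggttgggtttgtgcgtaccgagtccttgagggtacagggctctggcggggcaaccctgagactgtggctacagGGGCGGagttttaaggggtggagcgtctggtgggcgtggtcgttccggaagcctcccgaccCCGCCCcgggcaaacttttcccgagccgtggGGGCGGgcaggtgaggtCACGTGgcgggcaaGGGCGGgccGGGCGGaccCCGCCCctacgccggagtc
Notch2: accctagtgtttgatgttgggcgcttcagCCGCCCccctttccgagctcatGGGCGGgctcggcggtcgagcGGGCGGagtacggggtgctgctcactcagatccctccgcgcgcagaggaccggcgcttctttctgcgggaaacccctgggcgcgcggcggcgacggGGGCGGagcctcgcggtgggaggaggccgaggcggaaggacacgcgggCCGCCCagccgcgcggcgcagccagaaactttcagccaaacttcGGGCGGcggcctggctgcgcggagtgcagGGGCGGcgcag
Gpc3: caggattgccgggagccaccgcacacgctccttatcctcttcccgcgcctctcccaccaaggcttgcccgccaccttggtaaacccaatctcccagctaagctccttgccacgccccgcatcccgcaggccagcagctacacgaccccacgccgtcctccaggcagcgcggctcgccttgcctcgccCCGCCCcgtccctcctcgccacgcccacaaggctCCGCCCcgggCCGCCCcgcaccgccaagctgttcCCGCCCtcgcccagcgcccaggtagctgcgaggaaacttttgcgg
Hdlbp: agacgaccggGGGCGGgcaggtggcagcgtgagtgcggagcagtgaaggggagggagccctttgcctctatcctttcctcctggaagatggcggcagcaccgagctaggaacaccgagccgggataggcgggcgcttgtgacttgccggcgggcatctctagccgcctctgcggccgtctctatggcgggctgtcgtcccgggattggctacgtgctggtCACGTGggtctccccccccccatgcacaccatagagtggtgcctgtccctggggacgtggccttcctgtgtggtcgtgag
The Slc12a7 window held 6 GC boxes and 1 E-box, that of Notch2 held 7 GC boxes, that of Gpc3 held 4 and that of Hdlbp held 1 of each motif.

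RefSeq promoters were found for 55 members (71 windows of 300 bases) and for 10046 of the genes at the floor. The median GC content was 62% in the members' windows, 61% in those of genes at the floor and 52.7% over all 32851 promoters. Each motif was searched on both strands, a gene with several promoters was counted once, and a match is a description of the letters only. The E-box CACGTG, bound by basic helix-loop-helix factors, was in a promoter of 13 of the 55 members (23.6%), namely 9130019O22Rik, Ampd3, Cers2, Cib1, Hdlbp, Paxx, Ralgds, Sfxn2, Slc12a7, Sphk1, Synrg, Tmem248 and Zfp202. It was in 11.8% of the genes at the floor. Counted per promoter, it was in 21.1% of the members' windows and 7.15% of all promoters. Its inner letters ACGTG, the hypoxia element core, were in 41.8% of members and 29.4% of floor genes (19.6% of all promoters), a count that includes the E-boxes. The GC box GGGCGG was in 67.3% of members and 69.1% of floor genes (35.7% of all promoters), and the CCAAT box CCAAT in 43.6% and 42.9% (37.4%).

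Shares of the other motifs lay on either side of those of the floor genes. The cyclic AMP element TGACGTCA was in 0 of 55 members and 3.69% of floor genes (1.79% of all promoters), and its shorter core TGACG, which the full element contains, in 29.1% and 36.0% (20.8%). The AP-1 site TGANTCA was in 10.9% of members and 5.76% of floor genes (7.81% of all promoters), and the STAT site TTCNNNGAA in 12.7% and 8.05% (8.3%). The ETS core CCGGAAG was in 12.7% and 19.7% (8.86%), the TEAD site GGAATG in 12.7% and 14.2% (14.7%), the TATA box TATAAA in 7.27% and 8.61% (13.6%), and the heat shock unit GAANNTTC in 1.82% and 6.87% (7.86%). None of these shares was tested.

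Over the 66 members the mean of the withdrawn mice was 1.29 to 16.2 times that of the naïve mice, with a median of 2.45. In 23 members the ratio was under 2, in 24 it was from 2 to under 4, and in 19 it was at least 4. The gap, the lowest withdrawn value divided by the highest naïve value, was narrower, with a median of 1.12 and a maximum of 3.3. In 31 members the gap was under 1.1, in 7 it was over 1.5, and in 3 (Lbp, Notch2 and Gpc3) it was over 2. The exact Poisson 95% intervals of the counts on the 2 sides of the gap overlapped in 53 members and were apart in 13, namely Lbp, Notch2, Gpc3, Fbxl7, Vcl, Slc12a7, Farp2, Neat1, Gpc6, Kdm5c, Cul7, Dag1 and Ccng1.

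The 70 genes that met the rule were 0.520% of the 13474 at the floor, and 34 genes, 0.252%, were lower in every withdrawn mouse. The quasi-likelihood test of edgeR, Benjamini-Hochberg adjusted across 17093 genes, covered all 66 members and called none (adjusted p of at most 0.05 with a log2 fold change beyond 0.6). Over all genes it called 1 higher, 0.00585%, and this gene, Ptgdr, a prostaglandin receptor named after its values were seen, lies below the floor and is no member. At an unadjusted p under 0.05 the test passed 57 members, beside 5.00% of all genes higher. DESeq2 called 34 of the 66 members, beside 1.57% of all genes called higher. Since the same contrast chose the members, nothing is read from these counts. The median log2 fold change was 1.21 over the members (0.29 to 3.94) and 0.021 over all genes tested.

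**Figure D1:**
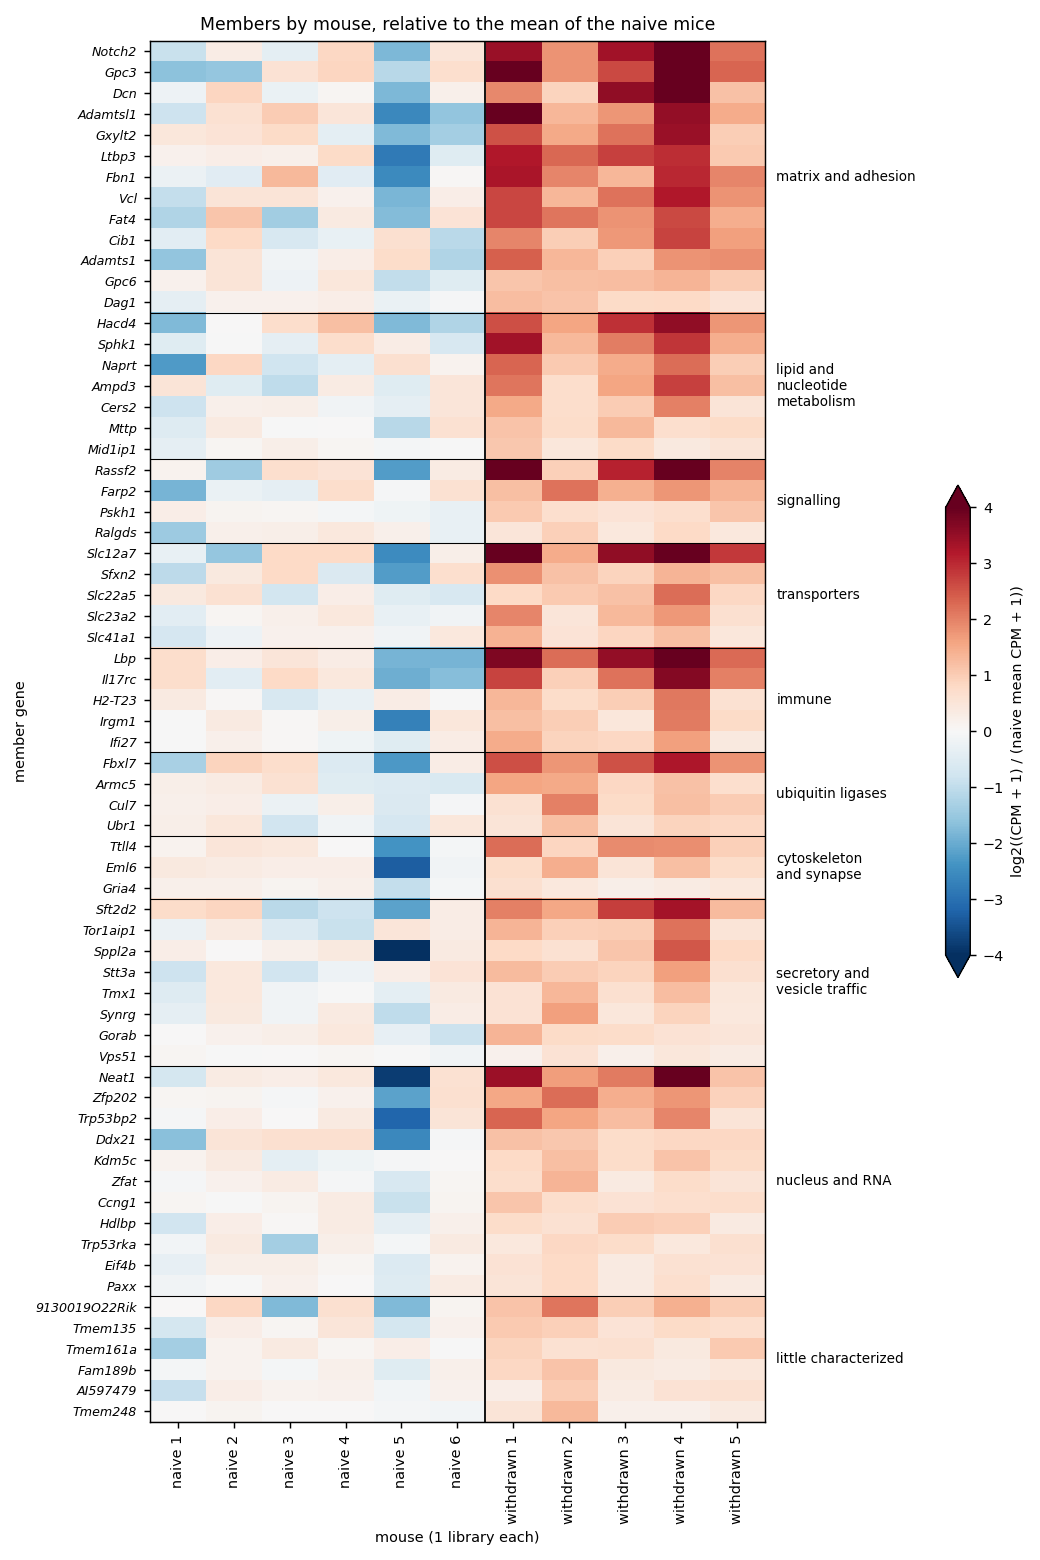
Each row is 1 of the 66 members and each column 1 mouse, 6 naïve and 5 withdrawn. Color gives log2((CPM + 1) / (naïve mean CPM + 1)), with values past 4 in either direction drawn in the end color, and rows are grouped by role. The darkest red stands in withdrawn mice 1 and 4, in rows such as Gpc3, Slc12a7 and Lbp, and the darkest blue in naïve mouse 5.

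Just inside the floor lay Sphk1 with a naïve mean of 2.08 CPM and Gxylt2 with 2.37 CPM. Just below it were Adgrv1 (naïve mean 1.97 CPM, withdrawn mean 51.1 CPM) and Bmp4 (1.95 CPM and 33.5 CPM), which also did not overlap between the groups. At the limit of overlap, Trp53bp2 and Tor1aip1 were inside with gaps of 1.004 and 1.005. Outside it, P3h4 had a lowest withdrawn value of 13.11 CPM against a highest naïve value of 13.14 CPM, and Slc6a6 had 128.4 CPM against 128.8 CPM.

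Genes of the extracellular matrix and of cell adhesion were the group with the most members, 13, and had the highest median ratio of the group means, 6.59 (1.91 to 12.1). Roles were assigned after the members were seen, and the share of such genes at the floor is not given, so nothing is read from this count. The 13 include the receptor Notch2, the xylosyltransferase Gxylt2 and the integrin-binding protein Cib1. The 10 fibroblast markers summed to 1644, 40.6, 852, 1486 and 330 CPM in withdrawn mice 1 to 5, and their part in the matrix members was not tested. Notch2 (ENSMUSG00000027878, chr3:98013527-98150361), a receptor for ligands on neighboring cells, was 0.382 to 7.62 CPM (median 3.82) in naïve mice, and 51.6, 16, 49, 94.7 and 20.6 CPM in withdrawn mice 1 to 5. The lowest withdrawn mouse, mouse 2, was 2.1 times the highest naïve mouse. The mean of Notch2 was 46.4 ± 31.4 CPM (SD, n = 5) in withdrawn and 3.84 ± 2.74 CPM (SD, n = 6) in naïve mice, a ratio of 12.1. Gxylt2, a xylosyltransferase acting on sugars of the Notch receptors, was 0 to 4.76 CPM (median 2.59) in naïve and 18.6, 8.62, 14.1, 35.8 and 5.62 CPM in withdrawn mice 1 to 5. Both genes were highest in withdrawn mouse 4 and low in naïve mouse 5.

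Gpc3 (ENSMUSG00000055653, chrX:52272426-52613950) and Gpc6 (chr14:116925315-117976544) encode glypicans, heparan sulfate proteoglycans anchored to the cell surface. Gpc3 was 1.1 to 10.8 CPM (median 5.36) in naïve and 114, 21.7, 39.96, 107 and 31.8 CPM in withdrawn mice 1 to 5, a ratio of means of 11.3. Withdrawn mice 1 and 4 were far above the other withdrawn mice, which in turn were at least 2.01 times the highest naïve mouse. Gpc6 was 9.94 to 30.02 CPM (median 20.8) in naïve and 46.3, 49.6, 50.03, 55.2 and 42.7 CPM in withdrawn mice, so that its 5 withdrawn mice lay close together, at 48.8 ± 4.65 CPM (SD, n = 5) in withdrawn and 20.8 ± 7.95 CPM (SD, n = 6) in naïve mice. Per kilobase of exon, the naïve level was 3.24 CPM for Gpc6 and 2.07 CPM for Gpc3.

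Dag1 (chr9:108204634-108263958) encodes dystroglycan, the membrane receptor that ties the cytoskeleton to matrix proteins. It was 57.9 to 90.1 CPM (median 78.5) in naïve and 180.1, 167, 129, 133 and 111 CPM in withdrawn mice 1 to 5. Its mean was 144 ± 28.6 CPM (SD, n = 5) in withdrawn and 75.3 ± 13.2 CPM (SD, n = 6) in naïve mice, a ratio of 1.91, and its highest withdrawn mice were 1 and 2. Vcl (chr14:20929398-21033676), vinculin, which links integrin and cadherin contacts to actin, was 1.91 to 13.9 CPM (median 11.2) in naïve and 65, 25.3, 46.3, 95.2 and 35.1 CPM in withdrawn mice, with a gap of 1.82. Withdrawn mouse 4 was the highest and mouse 2 the lowest of the withdrawn mice. Exons of the opposite-strand gene Ap3m1 overlap 25.5% of the exon bases of Vcl in GENCODE M21, and whether counting used strand is not given in the sources used here.

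Most of the other members of this group are secreted, while Fat4 and Cib1 are not. Adamtsl1, a secreted relative of the ADAMTS proteases without protease activity, was 0 to 11 CPM (median 4.79) in naïve and 105, 13.8, 19.1, 66.1 and 15.5 CPM in withdrawn mice 1 to 5. Ltbp3, which holds latent TGF-beta in the matrix, was 0 to 11.2 CPM (median 7.11) in naïve and 65.5, 34, 46.7, 54 and 13.7 CPM in withdrawn mice. Dcn, the collagen-binding proteoglycan decorin, was 0 to 5.32 CPM (median 2.35) in naïve and 12.2, 5.4, 39.7, 56.2 and 6.89 CPM in withdrawn mice. In each of these 3 genes naïve mouse 5 had 0 counts, and the lowest withdrawn mouse was 1.25, 1.23 and 1.02 times the highest naïve mouse. Fbn1, fibrillin-1 of the microfibrils, had a ratio of means of 6.59, Fat4, an atypical cadherin, 5.6, Cib1, a calcium- and integrin-binding protein, 4.59, and Adamts1, a protease of matrix proteoglycans, 3.81. All 13 were highest in withdrawn mouse 1 (7 genes) or 4 (6 genes).

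**Figure D2:**
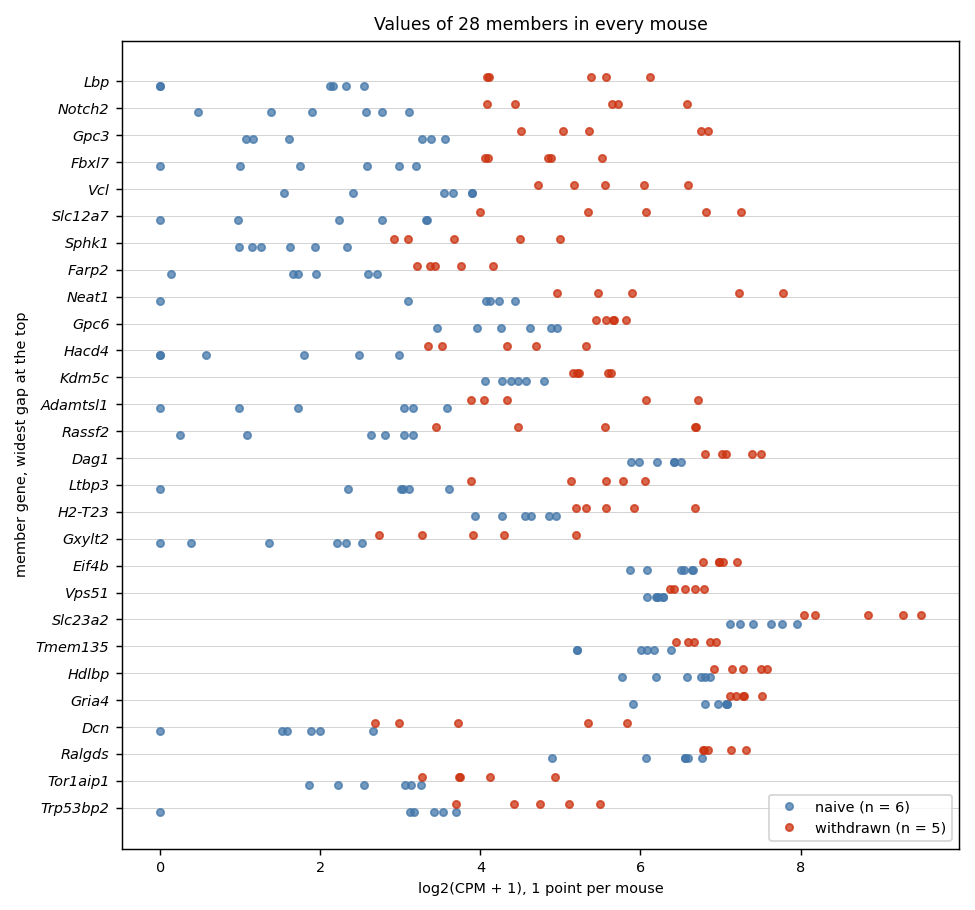
Each point is 1 mouse and each row 1 of 28 members, with log2(CPM + 1) on the horizontal axis, naïve mice (n = 6) in blue and withdrawn mice (n = 5) in red. Rows are ordered by the gap, from Lbp (3.3 on the CPM scale) at the top to Trp53bp2 (1.004) at the bottom, and in the lower rows the points of the groups nearly touch.

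Lists of related pathways and families were read beside all genes tested, of which edgeR had 5.00% higher at an unadjusted p under 0.05 and DESeq2 called 1.57% higher. Of 33 TGF-beta and BMP signalling genes tested, which include Ltbp3, edgeR called 0, with 8 higher and 0 lower at an unadjusted p under 0.05, and DESeq2 called 4 higher. The 32 genes of that list other than Ltbp3 had a median log2 fold change of 0.25, with 22 above 0. Of 27 Notch and Hippo signalling genes, which include Notch2, edgeR called 0 (4 higher and 0 lower unadjusted) and DESeq2 1 higher, with a median of 0.44 over the 26 others. Collagens, of which none is a member, had 0 calls by edgeR among 39 tested (11 higher and 0 lower unadjusted), 6 higher by DESeq2 and a median of 0.94. Integrins, also with no member, had 0 calls by edgeR among 21 tested (5 higher and 0 lower unadjusted), 5 higher by DESeq2 and a median of 0.5. Beside these, the median over all genes tested was 0.02.

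Close relatives of several members were tested in the same fit, and edgeR called none of the genes named in the rest of this paragraph. Among glypicans, Gpc1 had a log2 fold change of -0.38 ± 0.27 (SE), Gpc4 of 0.33 ± 0.69 and Gpc5 of 1.82 ± 1.22, beside 3.41 ± 0.67 for Gpc3 and 1.16 ± 0.28 for Gpc6. Notch1 had 0.23 ± 1.04, Notch3 0.65 ± 0.95 and Notch4 -1.05 ± 0.73, beside 3.50 ± 0.65 for Notch2. The standard errors were widest for relatives of low level, such as Gpc5, Notch1 and Notch3. The differences between relatives were not tested.

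**Figure D3:**
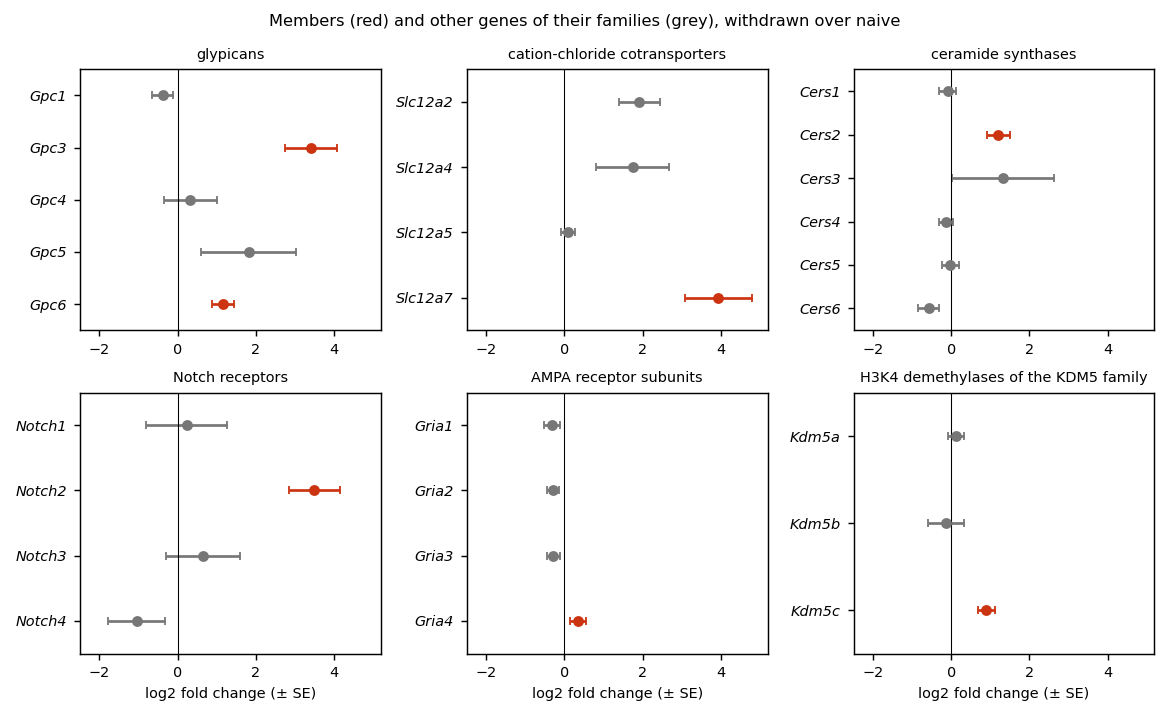
Points are log2 fold changes of withdrawn over naïve mice from edgeR with their standard errors (n = 5 and 6), for members in red and tested relatives in grey, in 6 families. In the AMPA receptor panel Gria1, Gria2 and Gria3 lie at -0.31, -0.30 and -0.28 and the member Gria4 at 0.35.

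Membrane transporters had 5 members, with ratios of means from 1.95 to 16.2. Slc12a7 (ENSMUSG00000017756, chr13:73733094-73816754), the potassium-chloride cotransporter KCC4, had the highest ratio of all members. It was 0 to 9.06 CPM (median 4.75) in naïve and 152, 14.9, 66.3, 112 and 39.5 CPM in withdrawn mice 1 to 5. The mean was 76.9 ± 55.3 CPM (SD, n = 5) in withdrawn and 4.76 ± 3.9 CPM (SD, n = 6) in naïve mice, a ratio of 16.2, while mouse 2, the lowest withdrawn mouse, was 1.65 times the highest naïve mouse. The neuronal cotransporter Slc12a5 (KCC2), a relative at a naïve mean of 353 CPM, had a log2 fold change of 0.10 ± 0.18 (SE). Slc12a2 (NKCC1) had 1.92 ± 0.52, with an adjusted p of 0.256 in edgeR and 0.0229 in DESeq2. Slc12a4 (KCC1), of low level, had 1.75 ± 0.93, beside 3.94 for Slc12a7. Slc12a7 was highest in mice 1 and 4, as was the fibroblast marker sum, and the part of fibroblast RNA in its level was not tested.

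Slc23a2 (chr2:132052496-132145108), the sodium-dependent vitamin C transporter of neurons, was the most abundant member in CPM in naïve mice. It was 138 to 248 CPM (median 183) in naïve and 728, 262, 456, 619.6 and 289.9 CPM in withdrawn mice 1 to 5, with means of 471 ± 203 CPM (SD, n = 5) in withdrawn and 186 ± 42.2 CPM (SD, n = 6) in naïve mice and a ratio of 2.53. Withdrawn mouse 2 lay only 1.06 times above the highest naïve mouse, and withdrawn mice 1 and 4 were the highest. Slc41a1, a magnesium transporter, Slc22a5, the carnitine transporter OCTN2, and Sfxn2, a mitochondrial sideroflexin, had ratios of 1.95, 2.76 and 2.9. Of 272 solute carriers tested, edgeR called 0 (30 higher and 5 lower unadjusted) and DESeq2 20 higher and 1 lower, and the 268 that are no members had a median log2 fold change of 0.10.

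Lipid and nucleotide metabolism had 7 members, with a median ratio of 3.85 (1.62 to 8.52). Hacd4, a dehydratase in the elongation of very long fatty acids, was 0 to 6.89 CPM (median 1.48) in naïve and 19.2, 9.2, 24.8, 38.8 and 10.5 CPM in withdrawn mice 1 to 5. Sphk1, which makes sphingosine 1-phosphate, was 0.977 to 4.03 CPM (median 1.74) in naïve and 30.9, 6.55, 11.8, 21.5 and 7.52 CPM in withdrawn mice. Mouse 4 was highest for Hacd4 and mouse 1 for Sphk1, and mouse 2 was lowest for both. Cers2, the ceramide synthase of very long acyl chains, was 16.1 to 41.3 CPM (median 30.2) in naïve and 84.8, 48.2, 60.1, 121 and 42.1 CPM in withdrawn mice. Its relatives Cers1, Cers4, Cers5 and Cers6 had log2 fold changes of -0.09, -0.13, -0.02 and -0.58, with standard errors of 0.18 to 0.27, and Cers3, at a naïve mean of 0.89 CPM, had 1.33 ± 1.30, beside 1.21 for Cers2, with no call by edgeR. Hacd4, Sphk1 and Cers2 were each highest in mouse 1 or 4, in which the fibroblast markers summed to 1644 and 1486 CPM. In mouse 2 the markers summed to 40.6 CPM, and Cers2 was lowest in mouse 5 instead. Of the 7 members of this group, 3 were highest in mouse 1, 3 in mouse 4, and Mttp in mouse 3. The part of fibroblast RNA in these genes was not tested.

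In the same group, Naprt, an enzyme of NAD synthesis from nicotinic acid, had a ratio of 3.91, and Ampd3, an AMP deaminase, one of 3.85. Mttp, which loads lipid onto lipoproteins, and Mid1ip1, a regulator of acetyl-CoA carboxylase, had ratios of 2.01 and 1.62. Exons of opposite-strand genes overlap 11.0% of the exon bases of Hacd4 (Focad) and 25.5% of those of Mid1ip1 (Gm14493). The list of cholesterol and fatty acid metabolism, which holds none of these members, had 0 calls by edgeR among 29 genes tested (2 higher and 0 lower unadjusted), 0 by DESeq2 and a median log2 fold change of 0.11.

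The 5 members of innate immunity and the interferon response were all highest in withdrawn mouse 4. Lbp (ENSMUSG00000016024, chr2:158306493-158332852), a secreted protein that binds bacterial lipopolysaccharide, was 0 to 4.81 CPM (median 3.42) in naïve and 46.6, 15.9, 40.6, 68.7 and 16.3 CPM in withdrawn mice 1 to 5. It had 0 counts in naïve mice 5 and 6, means of 37.6 ± 22.3 CPM (SD, n = 5) in withdrawn and 2.61 ± 2.09 CPM (SD, n = 6) in naïve mice and a ratio of 14.4. Its gap of 3.3 was the widest of the 66 members. H2-T23, the nonclassical MHC class I molecule Qa-1, was 14.3 to 29.9 CPM (median 23.2) in naïve and 59.3, 38.9, 46.3, 101 and 35.6 CPM in withdrawn mice, with mouse 4 well above the others.

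Il17rc, a subunit of the interleukin-17 receptor, was 0 to 5.7 CPM in naïve and 6.44 to 48.4 CPM in withdrawn mice, a ratio of 7.66. Ifi27 and Irgm1, both induced by interferons, had ratios of 2.21 and 2.42. Of 16 genes of MHC class I and antigen processing tested, which include H2-T23, 15 had a log2 fold change above 0, and edgeR called 0 (3 higher and 0 lower unadjusted) and DESeq2 2 higher. The 15 other than H2-T23 had a median of 1.1. Of 35 genes of NF-kB and cytokine signalling, with no member, 31 lay above 0 with a median of 0.38, and edgeR called 0 (6 higher and 0 lower unadjusted) and DESeq2 1 higher. Markers of microglia, which are given further on, were also highest in withdrawn mouse 4, at 49.9 CPM in sum, and their part in these genes was not tested.

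Signalling and protein degradation had 4 members each. Rassf2, a Ras-association domain protein, was 0.191 to 7.94 CPM (median 5.6) in naïve and 101, 9.89, 46, 103 and 21.1 CPM in withdrawn mice 1 to 5. Its ratio of means was 12.2, but mouse 2 was 1.25 times the highest naïve mouse. Farp2, an exchange factor for Rac downstream of semaphorin receptors, was 0.1 to 5.55 CPM (median 2.58) in naïve and 8.27, 16.9, 9.8, 12.5 and 9.35 CPM in withdrawn mice. Unlike in the matrix genes, withdrawn mouse 2 was here the highest. Exons of Stk25 on the opposite strand overlap 19.4% of the exon bases of Farp2.

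Ralgds, an exchange factor for Ral GTPases, was 28.8 to 108 CPM (median 93.1) in naïve and 114, 158, 109, 139.8 and 109.5 CPM in withdrawn mice, again highest in mouse 2, with a ratio of 1.56 and a gap of 1.01. Pskh1, a Golgi-associated kinase, had a ratio of 1.87. Fbxl7, the substrate-binding subunit of an SCF ubiquitin ligase, was 0 to 8.12 CPM (median 3.68) in naïve and 28.4, 15.6, 27.8, 45 and 16.1 CPM in withdrawn mice, with a gap of 1.93. Cul7, a cullin scaffold, Ubr1, a ligase of the N-degron pathway, and Armc5, a substrate adaptor of a cullin ligase, had ratios of 2.41, 1.79 and 2.41. Of 57 F-box proteins tested, including Fbxl7, edgeR called 0 (3 higher and 2 lower unadjusted) and DESeq2 1 higher, with a median log2 fold change of -0.04 over the 56 others.

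Of the 11 members that act in the nucleus or on RNA, 6 were highest in withdrawn mouse 2, and the median ratio was 1.82. Neat1 (ENSMUSG00000092274, chr19:5824708-5845478), the RNA scaffold of nuclear paraspeckles and the sole member that is not protein coding, was 0 to 20.5 CPM (median 16.1) in naïve and 149, 43.2, 58.7, 219 and 29.9 CPM in withdrawn mice 1 to 5. It had 0 counts in naïve mouse 5, and withdrawn mice 1 and 4 were the highest, with means of 99.9 ± 81.2 CPM (SD, n = 5) in withdrawn and 13 ± 7.72 CPM (SD, n = 6) in naïve mice. Kdm5c (chrX:152233020-152274535), a demethylase of lysine 4 on histone H3, was 15.7 to 26.7 CPM (median 20.5) in naïve and 36.4, 48.5, 34.8, 47.3 and 35.9 CPM in withdrawn mice. Its means were 40.6 ± 6.73 CPM (SD, n = 5) in withdrawn and 20.7 ± 3.8 CPM (SD, n = 6) in naïve mice, and mice 2 and 4 were the highest. Its relatives Kdm5a and Kdm5b had log2 fold changes of 0.13 ± 0.2 (SE) and -0.13 ± 0.46, beside 0.90 ± 0.22 for Kdm5c, with no call by edgeR. Of 57 chromatin modifiers tested, including Kdm5c, edgeR called 0 (1 higher and 2 lower unadjusted) and DESeq2 1 higher, with a median of 0.01 over the 56 others.

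Hdlbp and Eif4b act on translation, the first as the RNA-binding protein vigilin and the second as a cofactor of an RNA helicase. Hdlbp was 53.7 to 116 CPM (median 101) in naïve and 154, 141, 190.0, 181 and 119.7 CPM in withdrawn mice 1 to 5. Eif4b was 57.5 to 100.1 CPM (median 91.2) in naïve and 125, 146, 109, 129.5 and 125 CPM in withdrawn mice. Withdrawn mouse 3 was highest for Hdlbp and mouse 2 for Eif4b, and the gaps were narrow, at 1.03 and 1.09. Trp53bp2, a partner of p53, was 0 to 11.9 CPM (median 8.89) in naïve and 43.9, 25.9, 20.3, 33.6 and 11.9 CPM in withdrawn mice, with naïve mouse 5 at 0 counts and withdrawn mouse 5 just above the highest naïve mouse.

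Ccng1, a cyclin induced by p53, had a ratio of 1.71, and Trp53rka, a p53-related kinase, one of 1.57. Ddx21, a nucleolar RNA helicase, and Paxx, a factor of DNA end joining, had ratios of 2.04 and 1.48. The zinc finger proteins Zfp202 and Zfat had ratios of 3.78 and 1.82.

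The secretory pathway and vesicle traffic had 8 members, with a median ratio of 2.04 (1.29 to 6.47). Vps51, a subunit of the complexes that tether endosomal vesicles, was 67 to 76.8 CPM (median 73.2) in naïve and 81.9, 110.2, 84.4, 101 and 93 CPM in withdrawn mice 1 to 5. Its ratio of 1.29 was the lowest of all members, and its naïve mice were close together at 73.2 ± 3.64 CPM (SD, n = 6). Tor1aip1, an activator of torsin in the nuclear membrane, was 2.63 to 8.6 CPM (median 6.07) in naïve and 16.5, 12.3, 12.4, 29.5 and 8.64 CPM in withdrawn mice, where mouse 5 all but touched the highest naïve mouse. Sft2d2, a membrane protein of vesicle transport, Sppl2a, an intramembrane protease, and Stt3a, a catalytic subunit of oligosaccharyltransferase, had ratios of 6.47, 2.63 and 2.21. Tmx1, a thioredoxin of the endoplasmic reticulum, Synrg, a clathrin adaptor partner, and Gorab, a Golgi protein, had ratios of 1.87, 1.85 and 1.83. Neither the 42 tested genes of vesicle traffic and endocytosis nor the 24 of the unfolded protein response held a member or a call by edgeR. At an unadjusted p under 0.05 they had 1 and 4 genes higher and 0 lower, and DESeq2 called 0 and 3 higher.

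Gria4 (chr9:4417896-4796234), a subunit of AMPA-type glutamate receptors, was 59.1 to 135 CPM (median 129) in naïve and 183, 155, 138, 145 and 156 CPM in withdrawn mice 1 to 5. Its means were 155 ± 17.1 CPM (SD, n = 5) in withdrawn and 116 ± 29.5 CPM (SD, n = 6) in naïve mice, a ratio of 1.34, and withdrawn mouse 3 was 1.02 times the highest naïve mouse. Gria1, Gria2 and Gria3 had log2 fold changes of -0.31 ± 0.21 (SE), -0.30 ± 0.15 and -0.28 ± 0.16 beside 0.35 ± 0.20 for Gria4, with edgeR adjusted p values of 0.833, 0.743 and 0.780 for the first 3. Of 39 glutamate receptor and postsynaptic scaffold genes tested, including Gria4, 28 lay below 0, and edgeR called 0 (0 higher and 2 lower unadjusted) and DESeq2 0, with a median of -0.23 over the 38 others. Ttll4, which adds glutamate chains to tubulin, and Eml6, a microtubule-binding protein, had ratios of 3.58 and 2.06.

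The last 6 members are little characterized. Tmem135, a membrane protein of mitochondria and peroxisomes, was 35.9 to 82.2 CPM (median 64.8) in naïve and 122, 116, 86, 101 and 95.5 CPM in withdrawn mice 1 to 5, a ratio of 1.76 with mice 1 and 2 highest. Tmem161a, Tmem248, Fam189b, AI597479 and 9130019O22Rik had ratios from 1.5 to 3.33, and 4 of the 6 were highest in withdrawn mouse 2. Of 193 transmembrane (Tmem) proteins tested, including 3 members, edgeR called 0 (8 higher and 5 lower unadjusted) and DESeq2 2 higher and 1 lower, with a median log2 fold change of -0.08 over the 190 others.

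The withdrawn mice did not carry the members equally. Withdrawn mice 1 and 4 were each the highest withdrawn mouse for 22 members, mouse 2 for 18, and mice 3 and 5 for 2 each. Over all genes at the floor, the share highest in mice 1, 2, 3, 4 and 5 was 18.9%, 26.7%, 10.6%, 28.5% and 15.3%. The 22 members highest in mouse 4 had a median ratio of 5.14 and a median naïve level of 5.89 CPM, and the 22 highest in mouse 1 had 3.15 and 6.55 CPM. The 18 highest in mouse 2 had lower ratios, with a median of 1.81 (1.29 to 3.78), and a higher median naïve level of 33.7 CPM. No matrix, immune, transporter, or lipid and nucleotide metabolism member was among those 18. They include Farp2, Cul7, Kdm5c, Synrg, Ubr1, Ralgds, Eif4b and Vps51.

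**Figure D4:**
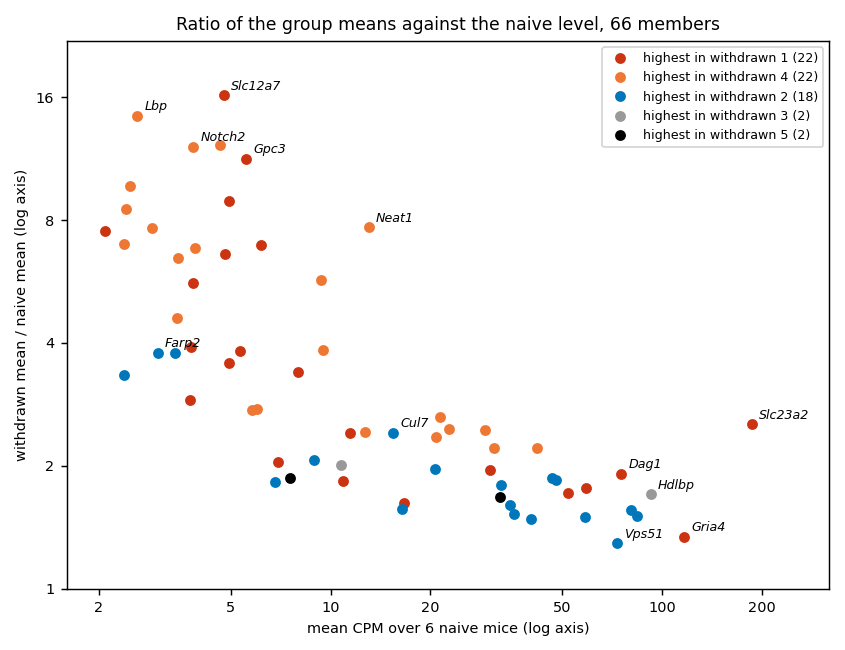
Each point is 1 of the 66 members, placed by its mean CPM over 6 naïve mice and by the ratio of the withdrawn to the naïve mean, both on log axes, and colored by the withdrawn mouse in which it was highest. Points of withdrawn mouse 2 (blue, 18 members) lie at ratios of 3.78 and lower, while the ratios above that belong to withdrawn mice 1 and 4. A low naïve level leaves more room for a high ratio, and the floor of 2 CPM cuts the points off at the left.

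Taking both mice at once, 28 members (42.4%) had their 2 highest withdrawn values in mice 1 and 4, beside 18.6% of the genes at the floor. Matrix and adhesion members had a median of 7.75, 2.80, 4.11, 9.64 and 3.22 times the naïve mean in withdrawn mice 1 to 5. Members that act in the nucleus or on RNA had 1.76, 2.26, 1.69, 1.87 and 1.6 times. The matrix group thus spread widely across the 5 mice with mouse 2 the lowest, and the nuclear group was nearly even with mouse 2 the highest.

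The sum of fibroblast markers had nearly the first of these orders, with mouse 1 above mouse 4. The summed CPM of 10 fibroblast markers, all present in the files, was 14.4 to 90.2 in naïve mice (median 30.1), and 1644, 40.6, 852, 1486 and 330 in withdrawn mice 1 to 5. Col1a2, a chain of type I collagen, was 0 to 38.3 CPM in naïve mice and 700.2, 1.96, 283, 418 and 96.8 CPM in withdrawn mice 1 to 5. Fbln1, the matrix protein fibulin-1, was 5.92 to 29.1 CPM in naïve mice and 302, 21.7, 199.8, 441 and 98.3 CPM in withdrawn mice. All 8 fibroblast markers tested had a log2 fold change above 0, with a median of 3.7, and edgeR called 0 of them (6 higher and 0 lower unadjusted) and DESeq2 4 higher. The sum of withdrawn mouse 2 lies within the naïve range, and Ogn and Pdgfra had 0 counts there. Dcn is both a member and one of these markers. In bulk libraries fewer cells of a type and less RNA per cell cannot be told apart, and the part of fibroblast RNA in the members was not tested.

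The sums of astrocyte and of microglial markers had nearly the same order across the withdrawn mice. The summed CPM of 8 astrocyte markers was 88.6 to 289.6 in naïve mice and 453, 80.4, 364.5, 586 and 243 in withdrawn mice 1 to 5. That of 8 microglial markers was 8.23 to 26.2 in naïve mice and 42.0, 8.51, 36.4, 49.9 and 29.0 in withdrawn mice. In both lists mouse 4 was the highest withdrawn mouse and mouse 2 the lowest, as in the matrix members. The single markers were split. Of the 7 astrocyte markers tested, 3 had a log2 fold change above 0 and 4 below, with a median of -0.13. Of the 4 microglial markers tested, 2 lay above 0 and 2 below, with a median of 0.2. By edgeR, 0 of these markers were called (2 and 1 higher and 1 and 0 lower unadjusted), and DESeq2 called 0. The summed CPM of 8 endothelial markers was 3.00 to 766 in naïve and 40.1 to 719.8 in withdrawn mice, and that of 8 mural cell markers 0.191 to 165 and 13.6 to 266, with withdrawn mouse 4 the highest of its group in both. Blood markers reached 247 CPM in withdrawn mouse 4 and were 1.03 to 10.5 CPM in the other withdrawn mice and 0 to 50.7 CPM in naïve mice. The part of these cell types in the members was not tested.

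**Figure D5:**
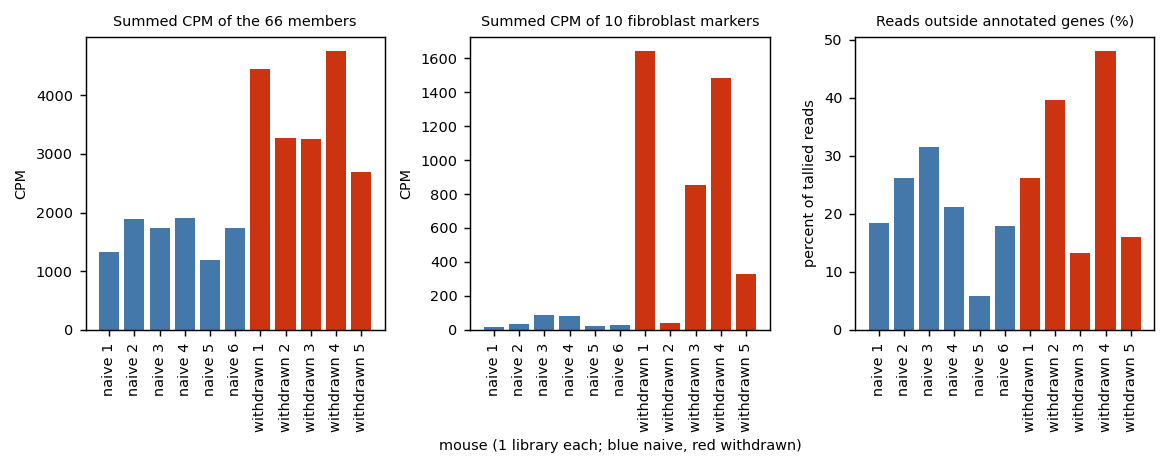
Bars give 1 value per mouse, naïve in blue and withdrawn in red, for the summed CPM of the 66 members, the summed CPM of 10 fibroblast markers and the percent of tallied reads outside annotated genes. The member sum is 1194 to 1902 CPM in naïve and 2697 to 4758 CPM in withdrawn mice, as the selection requires a gap, and withdrawn mouse 2 is low for fibroblast markers (40.6 CPM) and high for reads outside genes (39.6%).

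Among naïve mice, mouse 5 was the lowest for 34 members (51.5%), beside 38.0% of the genes at the floor. It had 0 counts for 17 members (25.8%), beside 10.5% of the genes at the floor. Naïve mouse 2 was the highest naïve mouse, and so set the limit to be passed, for 17 members, mouse 4 for 15, mouse 3 for 14, mouse 6 for 12, mouse 1 for 6 and mouse 5 for 2. Among withdrawn mice the lowest value, which had to pass that limit, came from mouse 5 in 23 members, mouse 2 in 17, mouse 3 in 14, and mice 1 and 4 in 6 each. Of all genes at the floor, 16.3%, 34.1%, 17.0%, 19.2% and 13.5% were lowest in withdrawn mice 1, 2, 3, 4 and 5.

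Membership changed with how libraries were scaled. Under edgeR's TMM scaling 51 of the 66 members still did not overlap between the groups, under DESeq2's size factors 59, and under both 50. With all tallied reads as the denominator, reads outside genes included, 26 members remained apart, and 25 were apart under all 4 scalings. Matrix and adhesion members were apart in 13 of 13 cases under TMM and size factors and in 8 of 13 under all 4 scalings, for ubiquitin ligases in 4 of 4 and 3 of 4. None of the 7 lipid and nucleotide members and none of the 6 little characterized ones were apart under all 4. Lbp, with the widest gap, overlapped over all tallied reads, and Notch2, Gpc3, Fbxl7, Vcl, Slc12a7, Farp2, Neat1, Gpc6, Kdm5c and Cul7 did not overlap under any of the 4.

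The number of genes meeting the rule depends on how many mice must agree, since fewer mice set fewer limits. Without withdrawn mouse 2 it was 380 rather than 66, without withdrawn mouse 5 it was 166 and without withdrawn mouse 3 it was 116. Without naïve mouse 2, 6, 3 or 5 it was 118, 115, 103 or 100. Without withdrawn mice 3, 4 and 5, whose source names say control, it was 739. All 66 members were among them by construction, since leaving out withdrawn mice cannot lower the lowest withdrawn value. That count therefore does not settle the labels of these 3 mice. In the fit without withdrawn mouse 2, edgeR called 9 of the members rather than 0, namely Slc23a2, Notch2, Vcl, Gpc3, Sphk1, Rassf2, Slc12a7, Ampd3 and Ifi27, which are given as a description like the other calls.

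By annotation, 65 members are protein coding, 3 lie on the X chromosome (Gpc3, Kdm5c and Mid1ip1), and the members are spread over 19 chromosomes. Their median naïve level was 10.1 CPM, beside 28.7 CPM for genes at the floor, and their median exon length 5664 bases, beside 4486. Exons of genes on the opposite strand overlap 17 members, and in 8 of these (Vcl, Mid1ip1, Fbn1, Farp2, Armc5, Eml6, Tor1aip1 and Hacd4) they cover more than 10% of the exon bases. In these genes reads of the 2 strands cannot be told apart unless the counting used strand. Exons of genes on the same strand overlap 6 members, Notch2, Neat1, Naprt, Ampd3, Gria4 and Vps51.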

How the data were processed

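RNA of sorted mPFC CRF1+ cells was sequenced from 6 naïve and 5 withdrawn mice. Per the labels and methods, the authors trimmed reads with cutadapt 1.18, aligned them to GRCm38 (Ensembl release 91) using STAR 2.5.2a and counted per gene with HTSeq 0.11.0, and the deposited values are raw counts, unnormalized and not pooled. Rows that name no gene stayed out of library sizes and tests and held 18.9% to 58.0% of tallied reads. Symbols (53274 of 53465 identifiers) and coordinates came from GENCODE M21.

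CPM and the selection rule were computed in Python 3.11.15. All genes were tested with edgeR 4.0.16 in R 4.3.3 (TMM, filterByExpr with minimum count 10 and total 15, quasi-likelihood test, Benjamini-Hochberg), with DESeq2 1.42.0 as an alternative, both tested on simulated data. Standard errors are the log2 fold change divided by the square root of F.

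No 2 of 55 pairs of libraries agreed within sampling noise (lowest chi-square per degree of freedom 25.6).

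The members and gene lists were chosen with earlier results of these data known, the roles and relatives after the members were seen. Members given in full were those with the 10 widest gaps, the 8 highest naïve means, the 8 highest ratios, those in a list, and those nearest a limit. A gene list and some relatives of members are not reported here.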

Additional observations from a re-analysis of the deposited data

Results flagged for a closer look

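Dixon's criterion was applied to 56 sets of naïve or withdrawn values of the 28 members given in full. In 7 sets, 1 mouse was far from the rest of its group. Independent sets would give about 1 in 20 by chance. These sets share mice, and the rule chose the members on the same values, so nothing is read from the count. The values were taken as log2(CPM + 0.5), a scale on which levels near 0 lie farther apart than in the CPM printed here. Naïve mouse 5 was at 0 CPM for 4 genes. These were Dcn (1.87 to 5.32 CPM in the other naïve mice), Neat1 (7.52 to 20.5 CPM), Ltbp3 (4.09 to 11.1 CPM) and Trp53bp2 (7.72 to 11.9 CPM). The same mouse had 59.1 CPM of Gria4, against 111 to 135 CPM in the other naïve mice. Naïve mouse 1 had 0.1 CPM of Farp2 (1 count), against 2.15 to 5.55 CPM, and 28.8 CPM of Ralgds, against 66 to 108 CPM. No withdrawn mouse stood apart by this criterion.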

How the results depend on the processing

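The rule gave 66 members. It gave 37 genes with CPM over all tallied reads, 151 with no floor, 121 with the floor on the mean of all 11 mice, 739 without the 3 withdrawn mice whose source name reads control, and 460 without naïve mouse 5 and withdrawn mouse 2, a pairing chosen after seeing the data. It gave 59 with TMM, 70 with size factors, 88 with a floor of 1 CPM and 45 with a floor of 5 CPM. Leaving out 1 mouse gave 87 to 380. Over all genes, edgeR's 1 call became 137 with no filter on low counts, 362 with DESeq2, and 0 without the 3 mice, and 0 to 193 with 1 mouse left out, the highest without withdrawn mouse 2 and 6 without naïve mouse 2. Calls among the members, 0 in edgeR, became 7 with no filter and 34 with DESeq2, and 0 to 9 with 1 mouse left out, the 9 again without withdrawn mouse 2. The members' median log2 fold change of 1.21 stayed between 1.05 and 1.32. The median of all genes was 0.021, 0.172 with no filter and 0.252 with DESeq2. Same-numbered mice are different animals, and their deviations correlated at -0.2 to 0.182, so the numbers do not pair the mice. With the replicate number as a block, edgeR called 0 genes and the members' median was 1.32. Of 476 log2 fold changes of the 28 members under these fits, none reversed, for which the selection itself left almost no room. Among the larger shifts were Hacd4 (3.01 to 3.93), Farp2 (1.84 to 2.51) and Fbxl7 (2.71 to 3.70) with the block. Dcn went from 3.2 to 1.74 without the 3 mice. Also with the block, Trp53bp2 went from 1.69 to 2.33, Slc12a7 from 3.94 to 4.49 and Neat1 from 2.85 to 3.39. Without naïve mouse 4, Hacd4 was 3.72. Depth limits the 53 members, at naïve means of 2.08 to 186 CPM, whose counting intervals at the gap overlap. The causes of these differences were not tested.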
